A study of Mus musculus with 18 samples.

Results

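The sarcoplasmic reticulum of the heart muscle cell stores calcium, releases it at each beat and takes it back up. This account follows 10 genes of that cycle, Ryr2, Trdn, Asph, Casq2, Hrc, Atp2a2, Pln, Jph2, Cacna1c and Slc8a1, chosen by name from their known roles. Earlier results of these data were known when they were chosen. All 10 were among the 19094 protein-coding genes counted. The data are RNA sequencing of cells isolated from the hearts of 6 mice aged 16 months. Of these, 3 were Bag3-P209L Tg+ mice, which carry a transgene of the co-chaperone BAG3 with a leucine in place of a proline, and 3 were Bag3-WT mice. Each mouse gave cardiomyocytes, listed as 2 samples called rep1 and rep2, and cardiac fibroblasts, listed as 1 sample. The labels do not say whether rep1 and rep2 are separate libraries or rounds of sequencing. Each sample is called a library here. The repeats of a mouse were summed, so that 18 libraries became 12 columns and the mouse was the unit of replication. Each mouse has a code with the letter F or M, which is F for Tg+ mice 1 and 3 and for Bag3-WT mouse 1, and M for the rest. The codes of Tg+ mouse 1 and Bag3-WT mouse 1 share their first part, and those of the rest all differ in it. The sources used here do not give the strain, the promoter of the transgene or the cells it acts in.

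In a heart muscle cell, the action potential opens L-type calcium channels of the T-tubules, and the calcium that enters opens ryanodine receptors on the facing membrane of the sarcoplasmic reticulum. The calcium released from that store starts contraction. Relaxation follows when a pump of the store membrane takes the calcium back up and an exchanger of the cell surface removes the rest. Fibroblasts do not contract, but they too hold a calcium store in the endoplasmic reticulum, filled by a pump from the same gene, Atp2a2.

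Columns held 10.9 M to 17.2 M counts in cardiomyocytes (M, 1e6) and 17.3 M to 61.3 M in fibroblasts. Mitochondrial genes took 51.7% to 85.5% of the cardiomyocyte counts and 16.7% to 74.2% of the fibroblast counts. That left 2.26 M to 7.79 M nuclear counts in cardiomyocyte and 11.3 M to 15.8 M in fibroblast columns. Bag3 was counted in every column, at 45.1 ± 10.4 CPM (counts per 1e6, after TMM scaling) in Tg+ and 54.4 ± 36.5 CPM in Bag3-WT cardiomyocytes (SD, n = 3 each). In fibroblasts it stood at 214 ± 89.2 CPM in the Tg+ mice and 195 ± 56.5 CPM in the Bag3-WT mice. The sources used here do not say whether reads of the transgene entered the Bag3 count. The labels of the cell types were checked against marker genes. The 13 cardiomyocyte markers, contractile and energy genes, summed to 3427 to 9099 counts per 1e6 nuclear counts in cardiomyocyte columns and to 917 to 2301 in fibroblast columns. The 10 fibroblast markers summed to 6546 to 22613 in cardiomyocyte and to 1732 to 6111 in fibroblast columns. The collagen genes made up much of that difference, with means of 6101 in cardiomyocyte and 622 in fibroblast columns for Col1a1 and of 2204 in cardiomyocyte and 555 in fibroblast columns for Col1a2. Dpt (means of 330 in cardiomyocyte and 393 in fibroblast columns) and Tcf21 (46.0 in cardiomyocyte and 73.1 in fibroblast columns) ran the other way, so the fibroblast markers did not separate the labels in 1 direction. The 10 macrophage markers summed to 1057 to 4686 in cardiomyocyte and to 5099 to 14180 in fibroblast columns. No contractile, fibroblast or macrophage marker was at 0 in any column. The libraries are called by their labels below, and every value is of a mixed RNA sample, in which fewer cells of a type and less RNA per cell cannot be told apart.

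Some columns stood apart before any comparison. The fibroblast column of Bag3-WT mouse 1 had the most counts (61.3 M), the highest mitochondrial share (74.2%) and the most cardiomyocyte marker RNA of the 6 fibroblast columns. The cardiomyocyte column of Tg+ mouse 1 had the lowest mitochondrial share (51.7%) and the most nuclear counts (7.79 M) of its cell type. It also had the least cardiomyocyte marker RNA of the cardiomyocyte columns. The cardiomyocyte column of Tg+ mouse 3 had 62 counts of Ddx3y and 172 of Eif2s3y, which are on the Y chromosome. Its letter is F. The other cardiomyocyte columns with letter F held 0 counts of Ddx3y and 24 and 19 of Eif2s3y, and the fibroblast columns with letter F held 0 of either gene. Values without each of these mice are given below for the main counts. For Bag3-WT mouse 1 and Tg+ mouse 3, those of the members that moved most are given too.

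The 10 genes together took 1411, 1998 and 2138 counts per 1e6 nuclear counts in cardiomyocyte columns of Tg+ mice, and 3256, 2669 and 2245 in those of Bag3-WT mice. In fibroblast columns they took 766, 746 and 868 in Tg+ mice, and 855, 634 and 699 in Bag3-WT mice. Every cardiomyocyte column thus lay above every fibroblast column. Atp2a2, which encodes the calcium pump of the store, was 46.4% to 61.2% of these counts in cardiomyocytes and 58.6% to 66.7% in fibroblasts. Pln, whose product phospholamban inhibits that pump, came next with 15.2% to 25.0% in cardiomyocytes and 7.45% to 15.9% in fibroblasts. Trdn had the fewest counts over the 12 columns (1145), with 61 to 186 in a cardiomyocyte column and 35 to 125 in a fibroblast column. In cardiomyocyte columns Slc8a1 (57 to 185) and Cacna1c (42 to 162) were as low, so counting error alone is larger for these 3 genes than for Atp2a2 (3151 to 8353 counts).

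Levels can be compared between genes only per length. Levels per kilobase of the longest annotated coding transcript were therefore computed, as counts per 1e6 nuclear counts and kilobase. Atp2a2 was highest in cardiomyocytes, with a median of 268 over the 6 mice, followed by Pln with 197. Their ranges overlapped (167 to 401 and 99.9 to 286). Jph2 followed with a median of 39.3 (range 25.0 to 63.1), below the lowest Pln value. Casq2 (31.1), Hrc (29.8), Asph (15.7) and Trdn (8.56) came next, and each of these overlapped its neighbour in the order. Ryr2 (3.78), Cacna1c (2.51) and Slc8a1 (1.19) were the lowest and also overlapped. Ryr2 and Slc8a1 have the longest transcripts of the 10 (16814 and 18464 bases), and a transcript shorter than the longest would raise a level per kilobase. In fibroblasts the order again began with Atp2a2 (median 111), Pln (32.8) and Jph2 (12.2), and ended with Slc8a1 (1.02), Ryr2 (0.747) and Cacna1c (0.595).

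**Figure D1:**
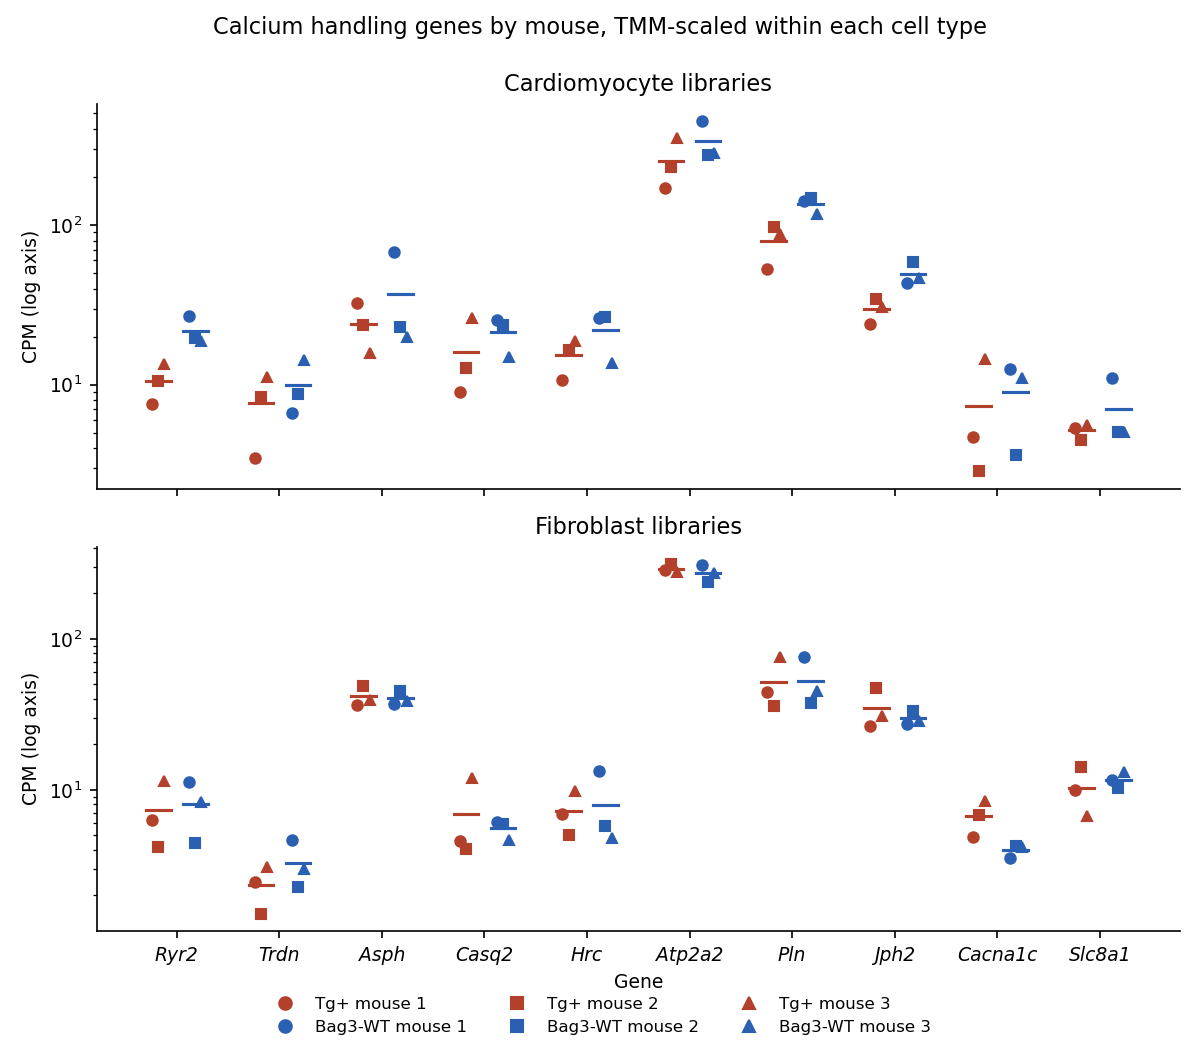
CPM (TMM-scaled within each cell type, log axis) of the 10 genes in cardiomyocyte libraries (top) and fibroblast libraries (bottom). Each symbol is 1 mouse, red for Tg+ and blue for Bag3-WT, and lines are group means (n = 3). In cardiomyocytes the Tg+ values of Ryr2, Pln and Jph2 lay below all Bag3-WT values, and in fibroblasts the Tg+ values of Cacna1c lay above them. Of all genes tested, 2.6% lay below in this way in cardiomyocytes and 5.51% above in fibroblasts. No gene passed by genotype after adjustment (edgeR).

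The first comparison asked how the cycle's genes differed between the cardiomyocyte and fibroblast libraries of the same mice. Of the 10 members, 8 were higher in cardiomyocyte libraries and 0 lower (edgeR, adjusted p under 0.05, n = 6 mice). Over all 13891 genes tested, 19.7% were higher and 24.9% lower by the same rule. The members' median log2 fold change, cardiomyocyte over fibroblast (log2FC), was 1.63, against −0.04 over all genes tested. Trdn, Casq2 and Hrc had the highest values and Asph and Slc8a1 the lowest. The 13 cardiomyocyte markers were all higher as well, with a median log2FC of 1.74. DESeq2 and limma voom also gave 8 higher and 0 lower members. The count was 8 without Bag3-WT mouse 1, 8 without Tg+ mouse 1 and 8 without Tg+ mouse 3. Scaled to library size alone, all genes had a median of −0.95 and the members of 0.74. In that fit 5 members were called higher, Jph2 and Cacna1c were not, and Atp2a2 stood at −0.01.

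The release complex comprises the ryanodine receptor and the proteins that tie it to the store's buffer. Ryr2 (ENSMUSG00000021313.16, chr13:11553102-12106945, minus strand, GRCm38) encodes the calcium release channel of the heart. Its within-mouse log2 difference in CPM was 1.14, 2.22 and 1.16 in the Tg+ mice and 2.11, 3.04 and 2.10 in the Bag3-WT mice. It was higher in cardiomyocytes in 6 of 6 mice (log2FC 1.97, SE 0.27, edgeR adjusted p = 1.97e-04). Trdn (ENSMUSG00000019787.9, chr10:33080554-33476709, plus strand) encodes triadin, which anchors calsequestrin to the channel. Its differences were 1.37, 3.32 and 2.77 in the Tg+ mice and 1.37, 2.81 and 3.18 in the Bag3-WT mice, and it was higher in 6 of 6 mice (log2FC 2.5, SE 0.33, edgeR adjusted p = 1.69e-04). Asph (ENSMUSG00000028207.18, chr4:9448069-9669344, minus strand) encodes junctin, another anchor at the channel, and also an aspartyl hydroxylase found in many tissues, and the gene count adds these products. It did not pass (log2FC 0.30, SE 0.27, 95% interval −0.29 to 0.89, edgeR adjusted p = 0.383). Its differences were 0.73, −0.15 and −0.36 in the Tg+ mice and 1.71, −0.06 and −0.01 in the Bag3-WT mice, so that only Tg+ mouse 1 and Bag3-WT mouse 1 were above 0. Both mice share the first part of their code, whose bearing on these values was not tested.

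The store holds its calcium on buffer proteins. Casq2 (ENSMUSG00000027861.13, chr3:102086415-102146514, plus strand) encodes calsequestrin, the main buffer of the heart's store. Its within-mouse differences were 1.85, 2.53 and 2.08 in the Tg+ mice and 2.89, 2.88 and 2.59 in the Bag3-WT mice. That was a log2FC of 2.48 (SE 0.21), with the lowest p of the members (edgeR adjusted p = 7.38e-06). Hrc (ENSMUSG00000038239.11, chr7:45335290-45338974, plus strand) encodes the histidine-rich calcium-binding protein of the store lumen, which binds triadin. Its differences were 1.53, 2.60 and 1.88 in the Tg+ mice and 1.80, 3.09 and 2.44 in the Bag3-WT mice (log2FC 2.23, SE 0.24, edgeR adjusted p = 3.80e-05). The 6 mice agreed in direction for Casq2 and for Hrc.

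The reuptake pair differed unequally. Atp2a2 (ENSMUSG00000029467.15, chr5:122453513-122502225, minus strand) was higher by 0.15, 0.47 and 1.29 in the Tg+ mice and by 1.37, 1.11 and 0.98 in the Bag3-WT mice (log2FC 0.90, SE 0.22, edgeR adjusted p = 0.00693). Pln (ENSMUSG00000038583.13, chr10:53337667-53345987, plus strand) was higher by 1.15, 2.33 and 1.16 in the Tg+ mice and by 1.75, 2.87 and 2.32 in the Bag3-WT mice (log2FC 1.93, SE 0.26, edgeR adjusted p = 1.99e-04). In 5 of 6 mice the difference of Pln was larger than that of Atp2a2, and Tg+ mouse 3 was the exception.

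Jph2 (ENSMUSG00000017817.11, chr2:163336242-163397993, minus strand) encodes junctophilin, which holds the store membrane close to the T-tubule. It was higher in cardiomyocytes by 0.74, 0.45 and 0.94 in the Tg+ mice and by 1.5, 1.72 and 1.64 in the Bag3-WT mice (log2FC 1.17, SE 0.21, edgeR adjusted p = 0.00133). Cacna1c (ENSMUSG00000051331.15, chr6:118587240-119196418, minus strand) encodes the pore of the L-type channel, the entry path of the calcium that triggers release. Its differences were 0.84, −0.34 and 1.72 in the Tg+ mice and 2.64, 0.68 and 2.32 in the Bag3-WT mice, the widest range of the 10 genes. It was higher overall (log2FC 1.33, SE 0.38, edgeR adjusted p = 0.0150), a call that was lost without Bag3-WT mouse 3 (adjusted p = 0.0587). Slc8a1 (ENSMUSG00000054640.15, chr17:81373105-81738377, minus strand) encodes the sodium-calcium exchanger of the cell surface. Its differences were 0.01, −0.75 and 0.69 in the Tg+ mice and 0.77, −0.12 and −0.42 in the Bag3-WT mice. These lay on either side of 0, and the gene did not pass (log2FC 0.03, SE 0.25, 95% interval −0.52 to 0.58, edgeR adjusted p = 0.933).

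**Figure D2:**
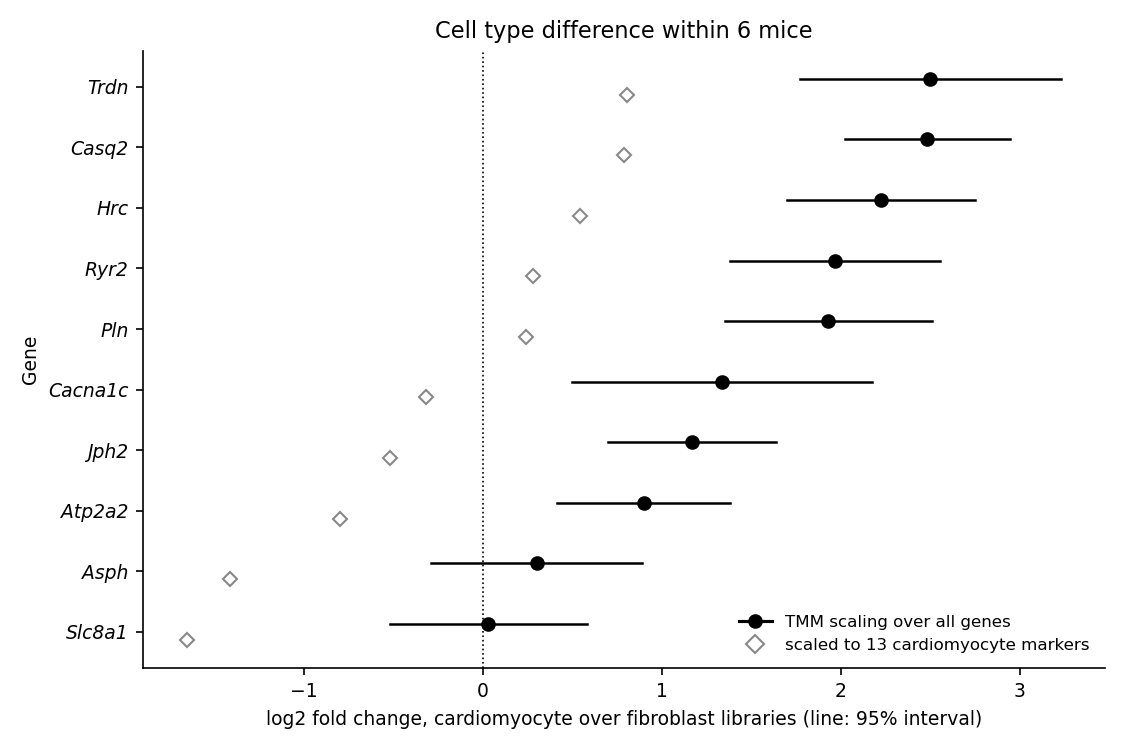
log2 fold change, cardiomyocyte over fibroblast libraries of the same 6 mice, for each gene. Filled circles are the TMM-scaled fit with 95% intervals, and open diamonds the values after scaling to 13 cardiomyocyte markers, drawn without intervals. Trdn, Casq2 and Hrc lie highest and Asph and Slc8a1 lowest on either scale.

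The start regions of 3 genes that were higher together, Casq2, Ryr2 and Pln, and of Slc8a1, which did not pass, are shown to let their sequence be set beside the levels. Each is 300 bases of RefSeq sequence on GRCm38.p6, 250 before and 50 after the annotated start, read 5′ to 3′ on the strand of the gene. Capitals mark matches, on either strand, to the E-box CANNTG, to AGATAA or TGATAA (the letters of a GATA factor site), to TATAAA and to a MEF2 motif.
Casq2, chr3:102086165-102086464, plus strand: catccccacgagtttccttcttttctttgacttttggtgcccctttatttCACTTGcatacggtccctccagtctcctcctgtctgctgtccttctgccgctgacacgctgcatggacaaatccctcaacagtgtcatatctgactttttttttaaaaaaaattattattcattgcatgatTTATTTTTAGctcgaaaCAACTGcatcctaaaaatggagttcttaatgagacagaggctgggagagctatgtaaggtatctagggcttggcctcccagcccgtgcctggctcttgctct
Ryr2, chr13:12106896-12107195, minus strand: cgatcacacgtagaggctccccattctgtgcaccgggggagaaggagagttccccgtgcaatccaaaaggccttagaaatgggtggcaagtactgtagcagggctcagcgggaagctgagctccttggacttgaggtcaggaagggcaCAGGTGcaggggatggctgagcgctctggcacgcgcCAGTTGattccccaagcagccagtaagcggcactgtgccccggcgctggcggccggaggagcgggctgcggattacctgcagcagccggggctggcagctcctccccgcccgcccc
Pln, chr10:53337436-53337735, plus strand: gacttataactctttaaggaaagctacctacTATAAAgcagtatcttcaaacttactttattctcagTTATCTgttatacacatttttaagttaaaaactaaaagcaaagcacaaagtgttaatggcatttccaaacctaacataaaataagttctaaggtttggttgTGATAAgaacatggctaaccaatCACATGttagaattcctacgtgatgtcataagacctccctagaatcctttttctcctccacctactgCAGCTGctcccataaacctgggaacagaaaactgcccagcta
Slc8a1, chr17:81738338-81738637, minus strand: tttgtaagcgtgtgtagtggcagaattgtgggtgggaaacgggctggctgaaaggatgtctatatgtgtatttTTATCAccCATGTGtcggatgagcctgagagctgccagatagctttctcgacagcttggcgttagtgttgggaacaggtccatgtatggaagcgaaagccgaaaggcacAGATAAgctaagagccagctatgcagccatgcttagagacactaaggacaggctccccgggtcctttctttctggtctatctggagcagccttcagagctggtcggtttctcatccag
The E-box letters were in all 4 windows, as in 72.3% of the 32851 windows of the same length in the reference. The MEF2 motif was in the Casq2 window alone of the 4, and in 3.19% of all windows. A GATA form was in the Pln and Slc8a1 windows, at 2 places in each, and in 18.6% of all windows. TATAAA was in the Pln window, 219 bases before the start, and in 13.6% of all windows. The Ryr2 window was 65.3% G and C with 18 CpG, that of Pln 36% with 1, against a median of 52.7% over all windows. RefSeq windows were found for 7 of the 10 members. These matches are letters in a window and were not set against binding data.

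Scaling to muscle RNA gives another reading of the same counts. The marker genes' median within-mouse difference was 1.05, 2.24 and 1.35 in the Tg+ mice and 1.31, 2.60 and 1.82 in the Bag3-WT mice. Single markers spread about that median. The difference of Myoz2 was above it in every mouse (1.94, 3.01 and 1.56 in Tg+, 1.84, 3.24 and 2.52 in Bag3-WT mice). That of Mybpc3 was below it in every mouse (0.38, 1.34 and 0.79 in Tg+, 1.00, 2.45 and 1.48 in Bag3-WT mice). Casq2 lay above the marker median in 6 of 6 mice, by 0.28 to 1.58 on the log2 scale. Hrc did so by 0.35 to 0.62 and Trdn by 0.05 to 1.42, also in 6 of 6 mice. Ryr2 (4 of 6 mice above) and Pln (5 of 6) lay close to the marker median, within −0.19 to 0.80 and −0.19 to 0.50. Atp2a2, Jph2 and Asph lay below that median in 5 of 6 mice each, with Bag3-WT mouse 1 the exception for each. Slc8a1 lay below it in 6 of 6 mice, by −2.99 to −0.54. Cacna1c lay above in 3 mice and below in 3. In the fit scaled to the markers, 1.35% of all genes were called higher and 77.8% lower, and all genes had a median of −1.74. That fit took its spread almost wholly from all genes together, which share the error of the scaling (69455 residual degrees of freedom for Casq2, against 11.0 in the TMM fit), and its p-values take that spread as known. It called Casq2 higher (0.79, edgeR adjusted p = 0.0487), and Slc8a1 (−1.65) and Asph (−1.41) lower.

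**Figure D3:**
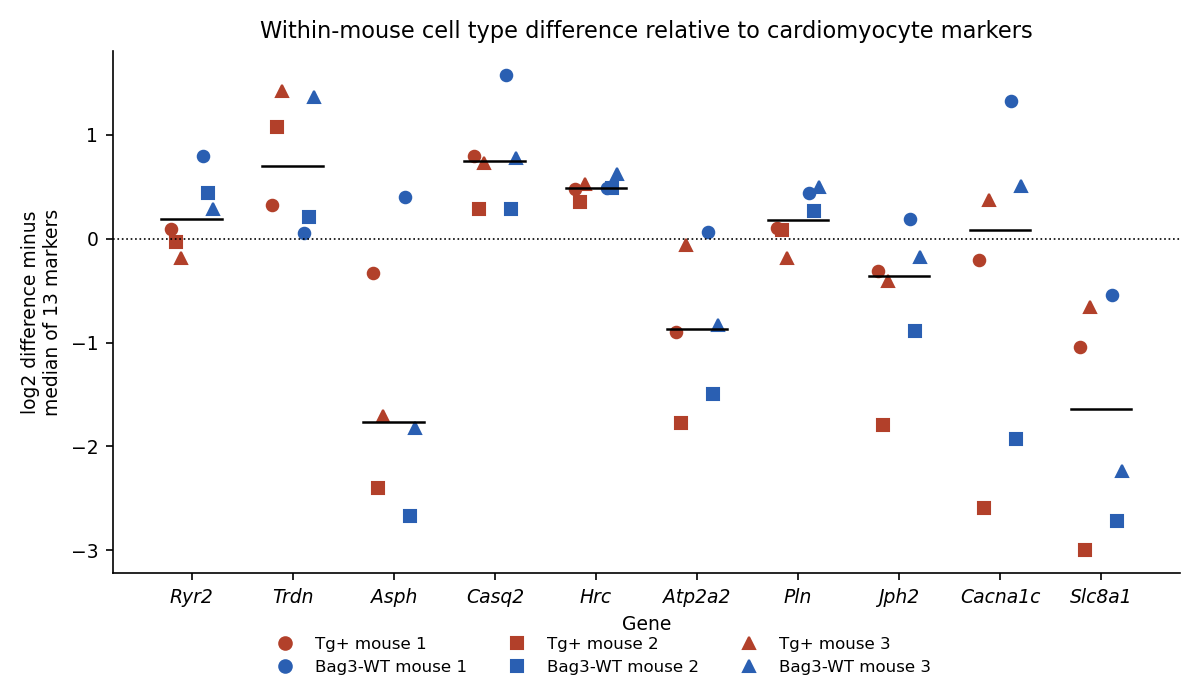
Within-mouse log2 difference in CPM, cardiomyocyte minus fibroblast, less the median of the 13 cardiomyocyte markers in the same mouse. Each symbol is 1 mouse and black lines are medians over 6 mice. Casq2, Hrc and Trdn lie above 0 in every mouse, and Slc8a1 below 0.

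Ratios of 2 members within a column do not depend on the scaling of the library. Of 7 ratios compared between the cell types, 2 moved in the same direction in all 6 mice. Slc8a1 over Atp2a2, the exchanger against the pump, was 0.0317, 0.0195 and 0.0161 in Tg+ and 0.0250, 0.0186 and 0.0181 in Bag3-WT cardiomyocytes. In fibroblasts it was 0.0350, 0.0452 and 0.0241 in Tg+ and 0.0376, 0.0432 and 0.0476 in Bag3-WT mice. The ratio was thus lower in cardiomyocytes (mean log2 difference −0.86, exact sign-flip permutation p = 0.0312, two-sided, the smallest that 6 mice allow). Jph2 over Ryr2, the junction protein against the channel, was likewise lower in cardiomyocytes in 6 of 6 mice (mean log2 difference −0.80, exact sign-flip permutation p = 0.0312). Pln over Atp2a2, the inhibitor against its pump, was 0.311, 0.416 and 0.248 in Tg+ and 0.317, 0.538 and 0.412 in Bag3-WT cardiomyocytes. Its fibroblast values were 0.155, 0.114 and 0.271 in Tg+ and 0.244, 0.159 and 0.164 in Bag3-WT mice, so that it was higher in cardiomyocytes in 5 of 6 mice (mean log2 difference 1.03, exact sign-flip permutation p = 0.0625). Ryr2 over Atp2a2 (1.07) and Casq2 over Ryr2 (0.51) gave the same p, also with 5 of 6 mice. Trdn over Ryr2 (0.52, p = 0.188) and Cacna1c over Ryr2 (−0.65, p = 0.438, exact tests) were less even over the mice. With the comparisons by genotype, 21 ratios were tested, and none stayed under 0.05 after adjustment over the 21 (lowest 0.262).

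**Figure D4:**
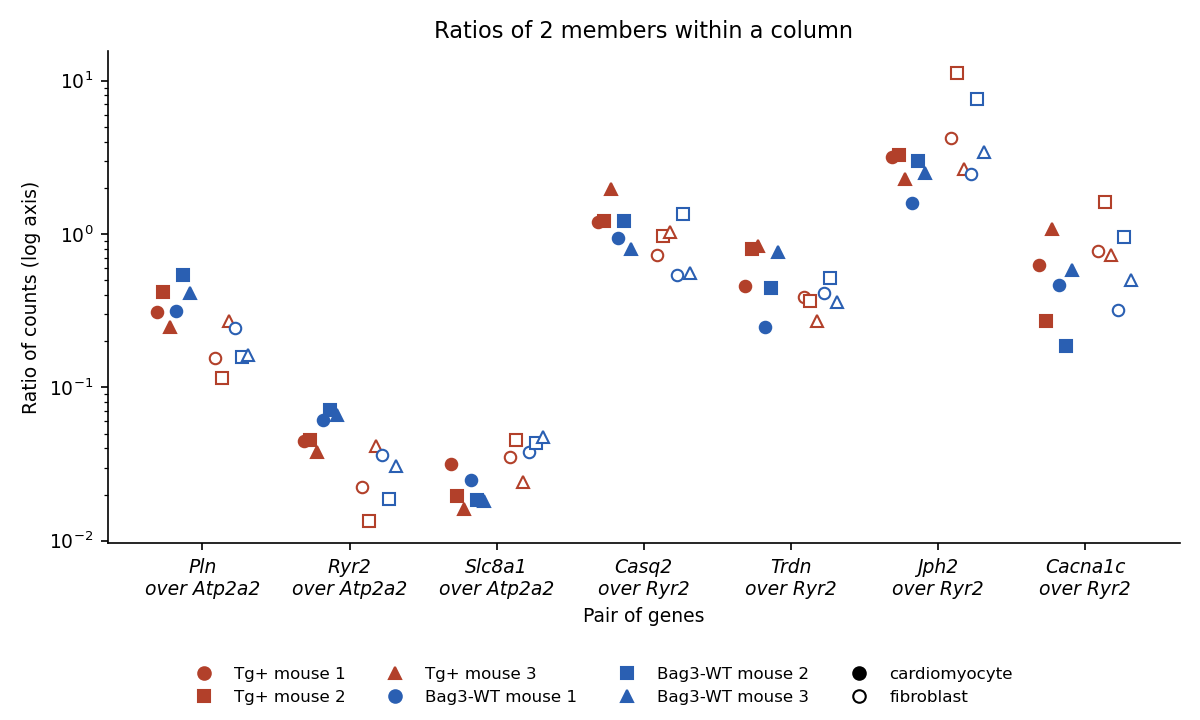
Ratios of the counts of 2 genes within a column (log axis), filled symbols for cardiomyocyte and open symbols for fibroblast columns, red for Tg+ and blue for Bag3-WT mice. Slc8a1 over Atp2a2 and Jph2 over Ryr2 are lower in the cardiomyocyte column of each mouse, and Ryr2 over Atp2a2 in cardiomyocytes is lower in the 3 Tg+ mice. No ratio stayed under 0.05 after adjustment over the 21 tests.

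Other genes of calcium handling did not move as a block between the cell types. Of 74 listed, 65 were tested, 21 were higher and 17 lower in cardiomyocytes, with a median log2FC of 0.22. Among all genes 19.7% were higher and 24.9% lower, so the share of these genes that was lower lay near that of all genes. Among 15 partners of the release channel, 8 were higher and 2 lower, with Calm3, a calmodulin gene, at 1.14 (SE 0.21) and the channel activator S100a1 at 0.95 (SE 0.20). Ryr1, the release channel of skeletal muscle, was lower (−3.28, SE 0.51). Among the other store proteins, Srl (sarcalumenin, 2.30, SE 0.23) and Tmem38a (a counter-ion channel of the store, 1.61, SE 0.24) were higher, while Calr (calreticulin, the buffer of the endoplasmic reticulum, −0.72, SE 0.21) was lower. Of the other pumps and pump regulators, Ppp1r3a, a phosphatase targeting subunit of muscle, was higher (2.27, SE 0.51), 1 of 3 tested. The junction and T-tubule genes split, with Cmya5 (2.05, SE 0.33) and Cav3 (muscle caveolin, 1.95, SE 0.38) higher and Bin1 (amphiphysin, which shapes T-tubules, −0.80, SE 0.17) lower.

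Surface channels, exchangers and pumps other than the members differed in both directions. Among other channel subunits, 3 of 9 were higher and 2 lower, with Cacnb3, an auxiliary subunit, at 1.40 (SE 0.29), and Gem, a small GTPase that inhibits L-type channels, at −3.46 (SE 0.22). Cacna1d, the pore of another L-type channel, was also lower (−3.50, SE 0.65) and was at 0 in 3 of 6 cardiomyocyte columns. The mitochondrial exchanger Slc8b1 (−2.71, SE 0.26), the surface exchanger Slc8a2 (−3.44, SE 0.49) and the surface pump Atp2b1 (−1.60, SE 0.26) were lower, 3 of 4 tested in their list, and 0 were higher. Of 6 genes of store-operated entry, Orai3 was higher (0.85, SE 0.18), and 3 were lower, among them Saraf (−0.84, SE 0.19) and Orai2 (−1.14, SE 0.29). Of 7 genes of mitochondrial uptake, 2 were lower, among them Mcur1 (−0.82, SE 0.18), and 0 higher. In the beta-adrenergic list 4 of 10 were higher and 2 lower, with the kinase subunit Prkaca at 1.53 (SE 0.19) and the cyclase Adcy5 at 1.40 (SE 0.20). Each gene named here as higher or lower passed at an edgeR adjusted p under 0.05 (n = 6 mice). The markers of other cells also differed between the libraries. Of the macrophage markers, 10 of 10 were lower in cardiomyocyte libraries (median −2.16), with Lyz2 at −1.57 and C1qa at −2.03. Of the fibroblast markers, 2 of 10 were higher and 1 lower, with Col1a1, a collagen gene, higher (2.52) and Dcn at −0.31 (adjusted p = 0.445). Of the smooth muscle and pericyte markers, 8 of 10 were higher (Acta2 4.14, Rgs5 0.85), as were 5 of 6 mesothelial markers (Upk3b 2.64, Msln 2.71), of which 1 was lower, and 4 of 6 atrial and ventricular markers (Nppa 1.2, Myl7 1.54). Of the endothelial markers, 0 of 8 were higher and 2 lower, with Cdh5 at −0.13 and Pecam1 at 0.13 not passing. The part of these cells in the differences of the calcium genes was not tested.

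The second comparison asked how these genes differed between Tg+ and Bag3-WT mice in cardiomyocytes. None of the 10 members passed (edgeR), and 0% of the 12439 genes tested did, with 89 genes at an unadjusted p under 0.05. DESeq2 called 3 genes and limma voom 0, none of them a member. All 10 members had a negative log2FC, Tg+ over Bag3-WT, as had 48.7% of all genes tested. The members' median was −0.49, against 0.01 over all genes tested. The 13 cardiomyocyte markers were also all negative, with a median of −0.62, and so were the 10 macrophage markers (−0.38) and the 6 atrial and ventricular markers (−0.75). The 8 endothelial markers were all positive (0.32). The fibroblast markers had a median of 0.10, the smooth muscle and pericyte markers of −0.00 and the mesothelial markers of −0.36, and the part of these cells in the members' values was not tested. Of the other calcium genes, 61 were tested and 0 passed, with a median of −0.10. In Ryr2, Pln and Jph2 all Tg+ mice lay below all Bag3-WT mice, 3 of 10 members, as in 2.6% of all genes tested and 1 of the 13 markers (Mybpc3).

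Ryr2 stood at 7.54, 10.6 and 13.4 CPM in Tg+ cardiomyocytes and at 27.1, 19.5 and 18.8 CPM in Bag3-WT cardiomyocytes. The groups did not overlap, and Ryr2 had the lowest p of the members (log2FC −1.06, SE 0.33, edgeR unadjusted p = 0.0127, adjusted p = 1.00, n = 3 each). Pln stood at 52.9, 96.7 and 87.4 CPM in the Tg+ mice and at 141, 147 and 117 CPM in the Bag3-WT mice (log2FC −0.77, SE 0.35, edgeR adjusted p = 1.00). Jph2 stood at 23.9, 34.5 and 30.5 CPM in the Tg+ mice and at 43.4, 58.7 and 46.6 CPM in the Bag3-WT mice (log2FC −0.74, SE 0.30, edgeR adjusted p = 1.00). Tg+ mouse 1 was the lowest of the 6 for each of these genes.

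In the other 7 members the groups overlapped. Atp2a2 stood at 170, 233 and 353 CPM in Tg+ and at 445, 274 and 283 CPM in Bag3-WT cardiomyocytes (log2FC −0.41, SE 0.42). Casq2 stood at 9.00, 12.8 and 26.2 CPM in the Tg+ mice and at 25.4, 23.7 and 14.9 CPM in the Bag3-WT mice (log2FC −0.42, SE 0.44), with Tg+ mouse 3 the highest of all 6. Hrc averaged 15.3 ± 4.10 CPM in the Tg+ mice and 22.1 ± 7.30 CPM in the Bag3-WT mice (log2FC −0.53, SE 0.37). Trdn averaged 7.67 ± 3.88 CPM in the Tg+ mice and 9.90 ± 3.97 CPM in the Bag3-WT mice (log2FC −0.38, SE 0.49). For Asph the values were 32.3, 23.6 and 15.8 CPM in the Tg+ mice and 68.1, 23.1 and 20.04 CPM in the Bag3-WT mice (log2FC −0.63, SE 0.52), with Bag3-WT mouse 1 far above the other 5. Cacna1c ranged from 2.88 to 14.5 CPM over the Tg+ and from 3.65 to 12.5 CPM over the Bag3-WT mice (log2FC −0.31, SE 0.67). Slc8a1 stood at 5.39, 4.50 and 5.61 CPM in the Tg+ mice and at 11.1, 5.04 and 5.09 CPM in the Bag3-WT mice (log2FC −0.45, SE 0.42), again with Bag3-WT mouse 1 apart. The 95% interval of each of these 7 genes spanned 0.

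The amount of muscle RNA also differed between these columns. The cardiomyocyte markers summed to 3427, 6752 and 4381 counts per 1e6 nuclear counts in Tg+ and to 6766, 9099 and 5558 in Bag3-WT cardiomyocytes. The mitochondrial share was 51.7%, 74.7% and 74.8% in Tg+ and 85.5%, 85.2% and 72.8% in Bag3-WT mice. Scaled to the markers, the members' median log2FC was 0.07 and that of all genes 0.63, with Ryr2 at −0.50, Pln at −0.24 and Jph2 at −0.17. Scaled to library size alone, the members' median was 0.29, against 0.84 over all genes. Both scalings thus raised the median of all genes as well, and the size of the shift differed between members. The signs of 8 members turned with library size and of 7 with the markers, while the members' median lay below that of all genes on each scale. Without Tg+ mouse 1 the members' median was −0.37, against −0.01 over all genes. Without Bag3-WT mouse 1 the members' median was −0.32. Ryr2 then stood at −0.86, Atp2a2 at −0.14, Cacna1c at −0.02, Asph at 0.17 and Slc8a1 at 0.04. Without Tg+ mouse 3 the median was −0.76. Ryr2 then stood at −1.27, Cacna1c at −1.24, Casq2 at −0.97, Trdn at −0.75 and Atp2a2 at −0.73, and no member passed after adjustment (edgeR). With the letter of the animal code as a term, the median was −0.62, Ryr2 stood at −1.12, Cacna1c at −0.86 and Jph2 at −0.64.

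The ratios need no library scaling, but they are still values of mixed RNA. Ryr2 over Atp2a2 had a mean log2 value of −4.24 in cardiomyocyte and −5.31 in fibroblast columns. The part of muscle RNA in its values by genotype was not tested. Ryr2 over Atp2a2 was 0.0444, 0.0456 and 0.0381 in Tg+ cardiomyocytes and 0.0609, 0.0716 and 0.0665 in Bag3-WT cardiomyocytes. The Tg+ values were all below the Bag3-WT values, with a mean log2 difference of −0.64 (SDs 0.14 and 0.12, exact permutation p = 0.1, two-sided, the smallest that 3 against 3 mice allow). After adjustment over the 21 ratio tests, the exact permutation p of this ratio was 0.35. Pln over Atp2a2 differed by −0.38 (SDs 0.37 and 0.38, exact permutation p = 0.3). In fibroblasts the ratio Ryr2 over Atp2a2 was 0.0222, 0.0135 and 0.0415 in Tg+ and 0.0364, 0.0186 and 0.0306 in Bag3-WT mice, with overlap (exact permutation p = 0.7).

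In fibroblasts none of the 10 members passed by genotype either (edgeR), and 0% of the 13571 genes tested did, with 690 genes at an unadjusted p under 0.05. DESeq2 called 6 genes and limma voom 0, none of them a member. The members' log2FC, Tg+ over Bag3-WT, was positive for 5 and negative for 5, with a median of 0.01, as over all genes tested. Cacna1c stood at 4.86, 6.83 and 8.42 CPM in Tg+ and at 3.55, 4.25 and 4.16 CPM in Bag3-WT fibroblasts. It was the only member without overlap, with all Tg+ mice above all Bag3-WT mice, as in 5.51% of all genes tested (log2FC 0.75, SE 0.25, edgeR unadjusted p = 0.0185, adjusted p = 0.768). For 0 members did all Tg+ mice lie below all Bag3-WT mice, against 7.58% of all genes. The log2FC of Cacna1c ran over 0.57 to 0.94 when each mouse in turn was left out. By genotype in these libraries, the fibroblast markers were positive in 10 of 10 (median 0.35) and the endothelial markers in 8 of 8 (0.41). The macrophage markers were negative in 10 of 10 (median −0.73), the cardiomyocyte markers in 12 of 13 (−0.45), the mesothelial markers in 5 of 6 (−1.52) and the atrial and ventricular markers in 4 of 6 (−1.08). The smooth muscle and pericyte markers had a median of 0.01. No marker was called, and the part of these cells in the Cacna1c value was not tested. Of the other calcium genes, 66 were tested and 0 passed, with a median of 0.06.

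The other fibroblast values overlapped between the genotypes. Atp2a2 averaged 292 ± 18.4 CPM in the Tg+ mice and 274 ± 35.3 CPM in the Bag3-WT mice (log2FC 0.10, SE 0.19), and Asph 41.5 ± 6.59 CPM in the Tg+ mice and 40.4 ± 4.27 CPM in the Bag3-WT mice (log2FC 0.04, SE 0.17). Ryr2 stood at 6.33, 4.19 and 11.5 CPM in the Tg+ mice and at 11.2, 4.41 and 8.36 CPM in the Bag3-WT mice (log2FC −0.13, SE 0.44). Pln stood at 44.3, 35.8 and 75.5 CPM in the Tg+ mice and at 75.3, 37.8 and 44.9 CPM in the Bag3-WT mice (log2FC −0.02, SE 0.35). Tg+ mouse 3 and Bag3-WT mouse 1 were the highest of their genotype for Ryr2 and for Pln, and also for the cardiomyocyte markers, which summed to 1309, 917 and 1692 counts per 1e6 nuclear counts in Tg+ and to 2301, 1018 and 1178 in Bag3-WT fibroblasts. The part of muscle RNA in these values was not tested. Without Bag3-WT mouse 1, Ryr2 stood at 0.21, Pln at 0.34 and Hrc at 0.46, and without Tg+ mouse 3 at −0.59 (Ryr2), −0.38 (Pln), −0.41 (Hrc) and −0.35 (Casq2). Casq2 (0.29), Jph2 (0.22), Hrc (−0.15), Slc8a1 (−0.18) and Trdn (−0.48) had log2FC values whose 95% intervals spanned 0.

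**Figure D5:**
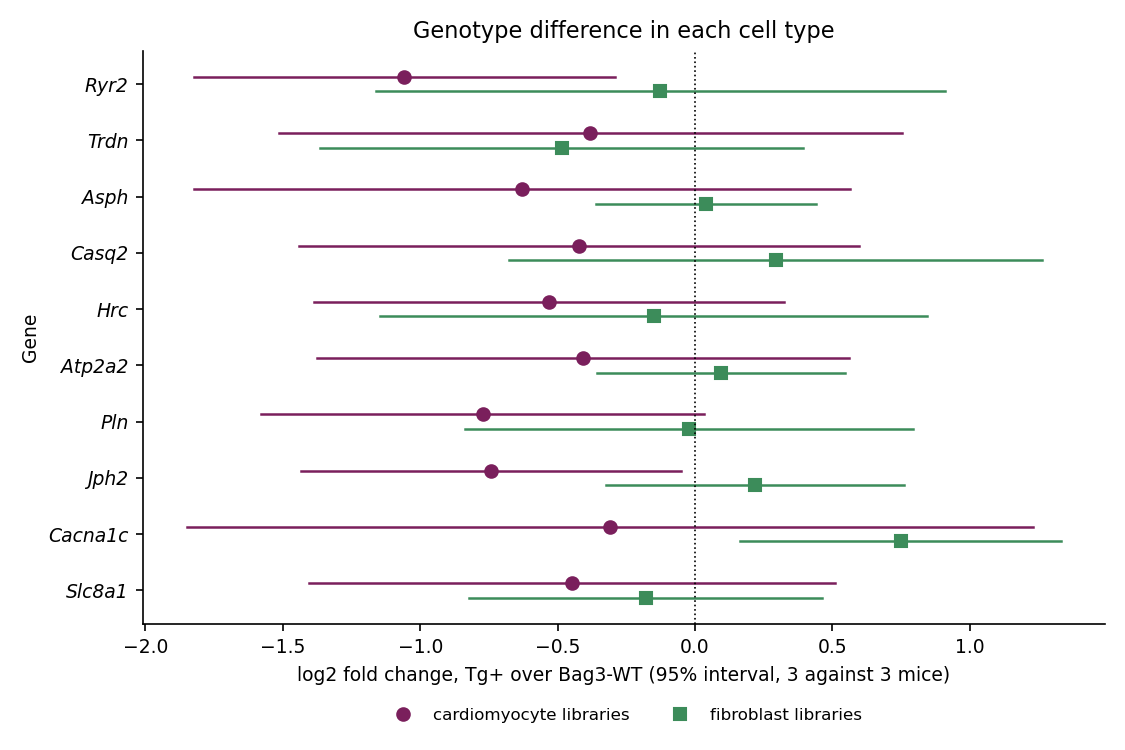
log2 fold change, Tg+ over Bag3-WT, of each gene in cardiomyocyte libraries (circles) and fibroblast libraries (squares), with 95% intervals from 3 against 3 mice. All 10 circles lie below 0, and no gene passed after adjustment over all genes. In cardiomyocytes the signs of 8 members turned with scaling to library size alone and of 7 with scaling to the markers.

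The difference of the genotype effect between the cell types was tested as an interaction. None of the 10 members passed (edgeR), and 0% of the 13891 genes tested did, with 124 at an unadjusted p under 0.05, 1 called by DESeq2 and 0 by limma voom. The members' median was −0.58, against −0.00 over all genes, and 9 of 10 were negative. Jph2 had the lowest p (−0.91, SE 0.35, edgeR unadjusted p = 0.0256, adjusted p = 1.00). Its within-mouse difference between the cell types was 0.74, 0.45 and 0.94 in Tg+ and 1.5, 1.72 and 1.64 in Bag3-WT mice. Ryr2 stood at −0.91 (SE 0.47), Casq2 at −0.64 (SE 0.38) and Cacna1c at −1.16 (SE 0.70). The 13 cardiomyocyte markers had a median of −0.26, all negative.

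How the members varied with each other over the mice was described within each cell type, over 6 columns that share the RNA makeup and depth of their library. In cardiomyocytes, Atp2a2 and Ryr2 followed the mean of the other 9 members most closely (Pearson r = 0.95 for each), and Asph least (0.17). Pln (0.96) and Jph2 (0.92) followed the mean of the cardiomyocyte markers, and Cacna1c did not (−0.08). In fibroblasts, Trdn (0.95), Pln (0.90), Hrc (0.90) and Ryr2 (0.85) followed the markers. Jph2 (−0.54) and Asph (−0.53) ran against them, and Slc8a1 stood at −0.17. The genes most like the mean of the 10 members over the 12 columns, after removal of the mean of each cell type, were sought among 6386 genes. They were Srl (r = 0.95), Txlnb (0.93), Mfn2 (0.91), Fsd2 (0.91), Dsp (0.90), Fhl2 (0.89), Xirp2 (0.88) and Chpt1 (0.88). The markers reached 0.24 (Tcap) to 0.81 (Ckmt2).

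Asph depended most on which deposited table was read. The second deposited table divides each estimated count by a factor of the gene and the library, for which the sources used here give no formula. Relative to the median gene of a library, the factor of Asph was 0.545 and 0.544 in the cardiomyocyte repeats of Tg+ mouse 1, and 0.265 and 0.248 in those of Bag3-WT mouse 1. In the other libraries with at least 20 Asph counts it ran over 1.01 to 1.39. The resulting values were 778 and 673 in Tg+ mouse 1 and 3161 and 2815 in Bag3-WT mouse 1, against 56.0 to 241 in the other libraries. The repeats of each mouse agreed. Tg+ mouse 1 and Bag3-WT mouse 1 share the first part of their code. The range of the factor, 2.49 on the log2 scale, was larger than in 95.3% of 3135 genes. Ryr2 (1.19) and Trdn (1.29) also had wide ranges, and the other 7 members stayed under 0.45.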

How the data were processed

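RNA-seq libraries of oligo(dT)-captured messenger RNA came from cardiomyocytes and fibroblasts, per the labels' protocols. The cardiomyocyte samples had a second round of sequencing, per the labels, which do not say whether rep1 and rep2 are these rounds. The first deposited table held expected counts (estimated counts per gene, 44.7% of the values not whole). In the second, the authors deposited a signal in which each estimated count was divided by a factor, and from the values that factor varies over genes as well as libraries. Per the submitters' processing notes, the tools were R 3.4.4, kallisto 0.44.0 and DESeq2 1.18.1 and the build GRCm38.p6, with no role or order stated. The sources used here give neither the step from transcripts to genes nor the use of strand. All 18 columns were mapped to samples.

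Counts of rep1 and rep2 were summed per mouse and rounded to whole numbers. Genes were filtered with filterByExpr, TMM-scaled and tested with edgeR 4.0.16 in R 4.3.3 (robust quasi-likelihood, two-sided, Benjamini-Hochberg over all genes tested, threshold 0.05). Cell type and interaction fits had the mouse as a block, and genotype fits were made within a cell type. CPM by genotype are scaled within a cell type, and within-mouse differences over 12 columns (log2 CPM, prior count 1). Ratios had 0.5 added to each count and were tested exactly. Likeness was ranked over genes with at least 10 CPM in cardiomyocyte columns. The tests were also run on simulated counts with 1 fixed spread, no mouse effect and changes larger than those of the members by genotype. Changes as small as those by genotype were not probed. Intervals by genotype cover the spread between 3 mice a group, and those by cell type the spread of differences within 6 mice. In cardiomyocytes 3 counts were 0.39 to 1.33 counts per 1e6 nuclear counts. Alternatives used DESeq2 1.42.0, limma 3.58.1, other scalings, each repeat alone, the second table, the letter of the animal code as a term and each mouse left out. Gene positions are from GENCODE M21. The members, the marker and calcium lists and the rule for named genes (all members, up to 3 passing genes of the lowest p per calcium list, and the 8 genes most like the members) were chosen with earlier results of these data known. Some genes that the rule names are not reported here.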

Additional observations from a re-analysis of the deposited data

How the results depend on the processing

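Each member's log2FC was recomputed under each alternative. By cell type, 130 of 150 values kept their direction and side of the threshold, 13 turned and 7 lost the call. By genotype, 162 of 180 in cardiomyocytes and 118 of 140 in fibroblasts were kept, and 141 of 150 in the interaction. The other values turned in sign, and no member passed by genotype or interaction under any alternative.

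With library size only, the cell type fit called 458 genes higher and 6623 lower and 5 members higher, with Asph at −0.63, Atp2a2 at −0.012 and Slc8a1 at −0.87. By genotype in cardiomyocytes it gave 2 genes higher, with Trdn at 0.088, Asph 0.51, Casq2 0.29, Hrc 0.29, Atp2a2 0.33, Jph2 0.022, Cacna1c 0.29 and Slc8a1 0.49. In fibroblasts it gave 2 genes higher, with Ryr2 at 0.36, Trdn 0.0092, Hrc 0.45, Pln 0.47 and Slc8a1 0.19. In the interaction it gave 1 gene higher, with Slc8a1 at 0.23.

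Scaled to the cardiomyocyte markers, the cell type fit called 187 genes higher and 10808 lower, 1 member higher and 2 lower, with Asph at −1.41, Atp2a2 −0.80, Jph2 −0.52, Cacna1c −0.32 and Slc8a1 −1.65. By genotype in cardiomyocytes it gave 3 genes higher, with Trdn at 0.036, Asph 0.081, Casq2 0.15, Hrc 0.063, Atp2a2 0.14, Cacna1c 0.21 and Slc8a1 0.19. In fibroblasts it gave 2 genes higher and 1 lower, with Ryr2 at 0.058, Hrc 0.13, Pln 0.18 and Slc8a1 0.046. In the interaction it gave 1 gene higher, with Slc8a1 at 0.31.

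DESeq2 called 2 genes higher and 1 lower by genotype in cardiomyocytes, 1 higher and 5 lower in fibroblasts and 1 higher in the interaction. Slc8a1 by cell type stood at −0.0049 with limma voom, −0.27 with rep1 alone and −0.20 in the second table. Asph by genotype in fibroblasts stood at −0.033 in the second table, and Trdn in the interaction at −0.036 with rep2 alone. For the values named here the cause was not tested.

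With each mouse left out in turn, 7 or 8 members were higher by cell type, and Slc8a1 ran over −0.13 to 0.18. By genotype in cardiomyocytes, Asph ran over −0.93 to 0.17, Cacna1c −1.24 to 0.067 and Slc8a1 −0.64 to 0.039. In fibroblasts, Ryr2 ran over −0.59 to 0.21, Asph −0.099 to 0.13, Casq2 −0.35 to 0.56, Hrc −0.41 to 0.46, Pln −0.38 to 0.34, Jph2 −0.066 to 0.38 and Slc8a1 −0.48 to 0.065. In the interaction, Trdn ran over −0.51 to 0.61, Asph −0.78 to 0.11 and Slc8a1 −0.45 to 0.27. The exact sign-flip test of the ratios by cell type cannot go below p = 0.0625 with 5 mice.

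Cardiomyocyte libraries of the same repeat number and unlike genotype had a mean correlation of deviations of 0.0165 over 18 pairs, with single values from −0.442 to 0.408. With the repeat number as a replicate block and the mouse as a random block, 0 genes passed by genotype in cardiomyocytes, the members' median was −0.56 and Ryr2 stood at −1.08 (limma adjusted p = 0.751). Without the repeat number, an alternative chosen after seeing the data, as were those of the ratios, Ryr2 stood at −1.08 (limma adjusted p = 0.423). Ryr2 over Atp2a2 by cell type reached an exact p = 0.0312 in the second table. Low counts limit Trdn, Cacna1c and Slc8a1.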
